A study of Mus musculus with 7 samples.

Results

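ATAC-Seq maps accessible chromatin, since the enzyme Tn5 inserts sequencing adapters mainly into DNA that is not packed in nucleosomes. The regions described here carried a peak in beta and delta cells of the mouse islet and no peak in alpha cells. They were selected on the peak calls of 7 libraries, after peaks that overlap by at least 1 bp had been merged. A region was kept when both delta libraries and at least 2 of the 3 beta libraries had a peak in it and neither of the 2 alpha libraries had one. Of 834695 merged regions, 133698 were called in at least 2 libraries, and 1882 of these (1.41%) met the rule. They are called beta-delta regions below. Since the calls chose them, the absence of alpha peaks is not a finding, and it was not tested.

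Alpha, beta, and delta cells secrete glucagon, insulin, and somatostatin. Beta and delta cells share several transcription factors that alpha cells express little or not at all, Pdx1 among them, and insulin and somatostatin release both respond to glucose. Distal open chromatin often marks enhancers, which bind transcription factors and can act on genes far away.

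All cells came from healthy triple transgenic mice that carry mIns1-H2b-mCherry and Rosa-LSL-YFP together with either Gcg-Cre or Sst-Cre, pooled by sex. The H2b-mCherry reporter, driven by an Ins1 promoter, marked beta cells. YFP, switched on by Cre, marked alpha cells in the Gcg-Cre line and delta cells in the Sst-Cre line, so a cell that once expressed Gcg or Sst can keep YFP. Cells with both colours were not included. The age of the mice is not given in the sources used here. Beta cells were sorted from the mice that gave the alpha or the delta cells, so beta libraries may share animals with alpha or delta libraries. Alpha and delta cells came from different lines and thus from different animals. Cell type and mouse line therefore cannot be told apart for alpha against delta cells. By the study's list of libraries, each cell type had libraries of both sexes, with 1 of the delta libraries from females and the other from males. Each library is 1 FACS-sorted pool, and the 2 alpha, 3 beta, and 2 delta libraries are labelled as biological replicates.

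Several properties of the libraries touch every value that follows. The deposited names give another cell type than the labels for all 3 beta lists, alpha for beta 1 and delta for beta 2 and beta 3, and the label was followed. The names also carry a lane code, which is 6 for both alpha libraries and beta 1 and 7 for the other 4 libraries, so cell type and lane cannot be told apart for alpha against delta cells. The beta 1 list held 518503 peaks over 113 Mb, of which 4.996% reached a -log10 q of 2, whereas the other lists held 75860 to 158066 peaks over 23.5 to 44.2 Mb, of which 29.8% to 54.9% did. A peak within 1 kb of the Gcg TSS was called in both alpha libraries, in delta 2, and in no beta library. One at Sst was called in both delta libraries and beta 1. Ins1, whose promoter drives the reporter, had one in all 7 and Ins2 in beta 3 alone, so these markers do not separate the labels cleanly. A missing peak is not a measured absence of signal, because the lists hold no reads outside peaks. The study reports unequal numbers of unique mapped reads among its libraries, and their part in the calls was not tested. It also removed a further beta library with a low fraction of reads in peaks, so its beta numbering may differ from the labels.

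To rank the beta-delta regions, each was given a score. It is the lowest -log10 q among its strongest peak in delta 1, its strongest peak in delta 2, and the second highest of its strongest beta peaks. The q-value is the p-value of MACS2 corrected for multiple testing within 1 library. A score of 2 thus means that both delta libraries and at least 2 beta libraries passed q = 0.01. The 6 regions of highest score whose windows lie outside exons are printed below, because they show what the most firmly called of these elements look like. Each window is 300 bp long, comes from the RefSeq copy of GRCm38, is centred on the summit of the peak with the highest rank in its own list, and is read on the plus strand. Capitals mark the letters of 6 motifs on either strand. The printed windows lie outside promoters, so each share below is that of the other regions of at least 2 libraries outside promoters. For AP-1 these letters are TGANTCA, and 18.9% of those windows held them. The homeodomain core is spelled TAATTA and stood in 9.36%. The NEUROD E-box is the word CAGATG, present in 27.0%. For FOXA factors the search used TGTTTAC, which 7.41% held. RFX factors were represented by GTTGCCA, found in 5.16%. The GATA letters, AGATAA, were in 17.2%.

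Sybu intron, chr15:44711522-44711821: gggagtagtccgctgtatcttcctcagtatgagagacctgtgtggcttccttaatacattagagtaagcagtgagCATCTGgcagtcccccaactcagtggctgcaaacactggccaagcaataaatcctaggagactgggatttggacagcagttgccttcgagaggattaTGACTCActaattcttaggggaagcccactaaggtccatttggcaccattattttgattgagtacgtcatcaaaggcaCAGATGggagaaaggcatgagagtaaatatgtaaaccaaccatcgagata
Nr2f1 upstream, chr13:78998914-78999213: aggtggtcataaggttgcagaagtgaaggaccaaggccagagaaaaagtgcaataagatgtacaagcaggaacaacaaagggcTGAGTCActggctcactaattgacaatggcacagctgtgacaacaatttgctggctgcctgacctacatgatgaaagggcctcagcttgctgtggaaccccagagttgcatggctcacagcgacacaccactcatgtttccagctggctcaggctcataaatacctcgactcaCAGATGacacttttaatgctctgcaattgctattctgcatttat
Nrxn3 intron, chr12:90113490-90113789: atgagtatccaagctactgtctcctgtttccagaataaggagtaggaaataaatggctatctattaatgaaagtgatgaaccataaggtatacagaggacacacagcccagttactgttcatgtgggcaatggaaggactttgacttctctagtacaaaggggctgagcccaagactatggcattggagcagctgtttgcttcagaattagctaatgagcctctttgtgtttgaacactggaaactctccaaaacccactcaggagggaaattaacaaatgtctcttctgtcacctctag
Iqcm intron, chr8:75549305-75549604: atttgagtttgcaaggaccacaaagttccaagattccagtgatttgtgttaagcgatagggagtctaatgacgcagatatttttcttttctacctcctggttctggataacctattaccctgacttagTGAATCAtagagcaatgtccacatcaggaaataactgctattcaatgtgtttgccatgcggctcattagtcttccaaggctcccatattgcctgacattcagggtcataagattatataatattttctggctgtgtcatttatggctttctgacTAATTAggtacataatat
Prl upstream, chr13:26980528-26980827: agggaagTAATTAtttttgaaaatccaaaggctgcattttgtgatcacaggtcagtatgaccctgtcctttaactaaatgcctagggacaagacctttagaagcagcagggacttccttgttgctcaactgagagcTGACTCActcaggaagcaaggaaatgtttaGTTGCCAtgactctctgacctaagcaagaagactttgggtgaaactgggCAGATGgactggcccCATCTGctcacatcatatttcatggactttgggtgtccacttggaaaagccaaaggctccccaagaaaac
Nebl intron, chr2:17399334-17399633: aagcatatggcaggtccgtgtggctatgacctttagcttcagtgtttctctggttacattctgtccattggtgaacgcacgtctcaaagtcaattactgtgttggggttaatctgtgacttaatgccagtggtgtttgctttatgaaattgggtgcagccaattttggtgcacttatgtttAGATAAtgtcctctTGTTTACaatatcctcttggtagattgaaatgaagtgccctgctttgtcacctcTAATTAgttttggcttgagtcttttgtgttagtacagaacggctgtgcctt

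Of these windows, 4 held AP-1 letters, those in the Sybu and Iqcm introns and upstream of Nr2f1 and Prl. The homeodomain letters stood in the Iqcm, Prl, and Nebl windows. The window in the Nrxn3 intron held none of the 6 motifs. A match describes the letters only and is not a measured binding site.

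The region of highest score lay in an intron of Sybu, which encodes syntabulin, a linker between kinesin motors and membrane cargo. It spans chr15:44711401-44711939, 76.1 kb inside the gene. Its -log10 q was 10.4 in beta 1, 15.4 in beta 2, 20.2 in beta 3, 36.8 in delta 1, and 21.3 in delta 2. Both delta values were above the 3 beta values, and the nearest alpha peak was 4416 bp away. The second, in Csmd3, a large gene for a membrane protein expressed in brain, spans chr15:47800635-47801069 and had values of 9.75, 21.9, and 13.8 in the beta libraries and 24.4 and 21.8 in the delta libraries. It overlaps the 3 kb around an annotated TSS within the gene.

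The third spans chr13:78998640-78999249 between genes, 798.9 kb upstream of Nr2f1, an orphan nuclear receptor. Here the beta libraries had 14.8, 30.8, and 26.2 and the delta libraries 16.8 and 10.8, so that beta 2 and beta 3 exceeded both delta values. The fourth, chr12:90113386-90114057, lay in an intron of Nrxn3, a synaptic adhesion gene, and its nearest TSS was that of Dio2, 624.4 kb away. Beta 2 stood apart there with 2.04, beside 15.1 in beta 1, 14.04 in beta 3, 13.5 in delta 1, and 10.8 in delta 2. Dio2 encodes a deiodinase that activates thyroid hormone. The peak lists do not assign the region to either gene.

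Further down the order, the region upstream of Prl, the gene of the pituitary hormone prolactin, spans chr13:26980489-26981020. It lay 76.6 kb from the Prl TSS, in an intron of an annotated gene that is not protein-coding. It had 4.94, 9.71, and 14.3 in the beta libraries and 16.9 and 12.6 in the delta libraries, and at 14988 bp its gap to an alpha peak was the largest of the 20 regions of highest score. The intronic region of Nebl, which encodes the actin-binding protein nebulette, varied less, with 6.10, 10.05, and 9.57 in beta and 11.97 and 10.9 in delta cells. A promoter-proximal region 1497 bp upstream of Slc10a2, the ileal bile acid transporter, was uneven, with 32.2, 8.57, and 38.0 in beta cells and 7.997 and 7.77 in delta cells. Beta 1 and beta 3 were high there, and beta 2 and both delta libraries were low.

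All 20 regions of highest score were called in all 5 beta and delta libraries, with a -log10 q between 2.04 and 38.0 and a fold enrichment of the summit over local background between 3.79 and 18.4. The rule asks for only 2 beta calls, so the third beta call was not set by it, though the score favours strong peaks. The mean -log10 q was higher in delta than in beta libraries at 12 of the 20, and which cell type was higher varied from region to region. In the annotation, 7 lay in introns, 6 were distal-intergenic, 6 promoter-proximal, and 1 overlapped an exon, of Unc5c, a netrin receptor. The nearest protein-coding TSS was over 100 kb away for 15 of them. Other nearest genes among the 20 were Chd7, a chromatin remodeller, Ybx3, Pros1, the anticoagulant protein S, Lingo2, and Cdh7, a cadherin. The gap to the nearest alpha peak ranged from 405 bp to 14988 bp, with a median of 4554 bp.

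**Figure D1:**
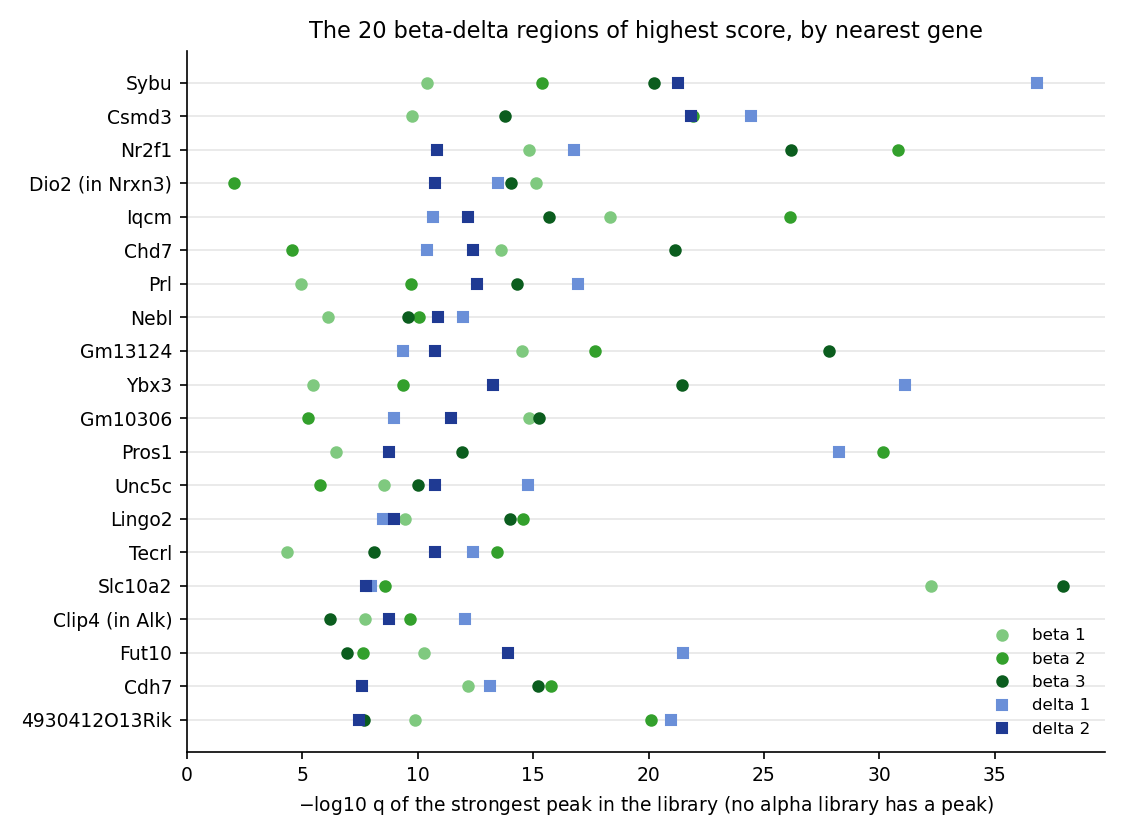
The -log10 q of the strongest peak (x axis) of the 20 beta-delta regions of highest score (y axis, by nearest protein-coding gene, with the host gene where it differs). Circles are the 3 beta and squares the 2 delta libraries. At Sybu both squares lie right of all circles, and at Slc10a2 beta 1 and beta 3 lie at 32.2 and 38.0 and the other 3 libraries below 10.

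Most beta-delta regions were weaker than these. The median -log10 q of the strongest peak was 1.10 in beta 1, 2.57 in beta 2, 2.57 in beta 3, 2.98 in delta 1, and 3.21 in delta 2. Of the 1882 regions, 329 (17.5%, Wilson 95% confidence interval 15.8% to 19.3%) had a score of at least 2, 143 (7.60%) reached a -log10 q of 2 in all 5 libraries, and 173 (9.19%) did so in none. Where both alpha libraries had a peak as well, the same 5 medians were 3.52, 4.86, 6.80, 12.9, and 9.43. Regions just outside the rule, with a peak in exactly 1 alpha library, numbered 3293, and their medians were 1.10, 2.90, 2.57, 4.14, and 3.53. Their single alpha peak had a median -log10 q of 1.18 in alpha 1 (1066 regions) and 2.03 in alpha 2 (2227 regions).

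**Figure D2:**
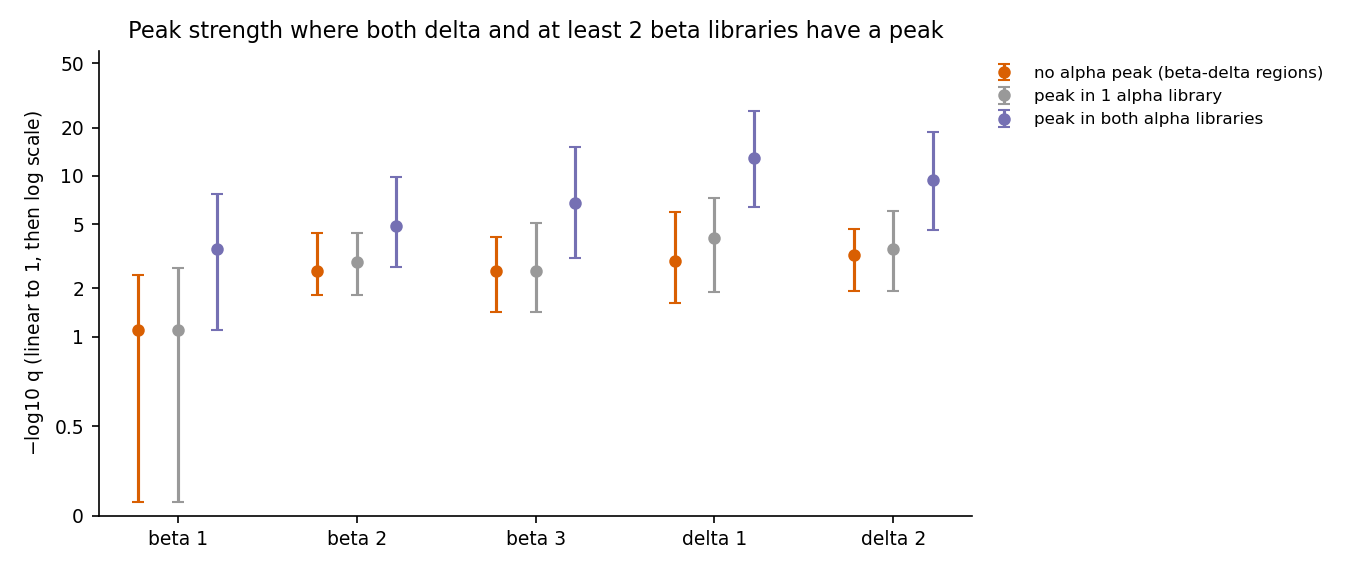
Median (point) and quartiles (bars) of the -log10 q of the strongest peak in each beta and delta library, on an axis that is linear to 1 and logarithmic above, for regions called in both delta and at least 2 beta libraries. Regions with a peak in both alpha libraries had a median of 12.9 in delta 1, beta-delta regions one of 2.98.

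Peak strength was compared between beta and delta libraries. The rule asks for both delta peaks but lets 1 of the 3 beta peaks be missing, so it does not treat them quite alike. The peaks compared are also the calls that chose the regions, so no conclusion on the cell types is drawn. The share of beta-delta regions called in a library that reached a -log10 q of 2 was 33.3%, 55.4%, and 58.1% in beta 1, 2, and 3 and 60.04% and 61.8% in delta 1 and 2. Over all peaks of a list, the shares were 4.996%, 35.2%, and 36.6% in beta 1, 2, and 3 and 29.8% and 54.9% in delta 1 and 2. In the beta-delta regions, all beta shares lay below both delta shares, with means of 48.9% ± 13.6 (SD, n = 3) and 60.9% ± 1.28 (SD, n = 2). The difference of -12.0 percentage points did not pass a two-sided exact permutation test (p = 0.3, adjusted over 2 tests 0.6), and the smallest p this design allows is 0.1. The difference was -0.419 without delta 2, -4.68 without beta 1, and -7.46 without delta 1. Within its own list, the median peak ranked at percentiles 90.9, 69.0, and 71.8 in the beta libraries and 74.9 and 55.8 in the delta libraries, and these ranges overlapped (difference 11.9, two-sided exact permutation test p = 0.6, adjusted 0.6). That difference was 1.996 without delta 2, 7.39 without beta 1, and 28.0 without delta 1, and -3.78 among the regions not called in beta 1. The high percentile in beta 1 goes with its long list of weak peaks. Within the lane of the delta libraries, which holds beta 2 and beta 3, the 4 shares lay between 55.4% and 61.8%.

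Beta 1 had a large part in the calls. It had a peak in 1722 of the beta-delta regions (91.5%), and only 160 (8.50%) rested on beta 2 and beta 3 alone. All 3 beta libraries had a peak in 686 (36.5%), beta 1 with beta 2 in 452, and beta 1 with beta 3 in 584. Without beta 1, and with both other beta libraries required, 844 regions met the rule. Leaving out a beta list makes the rule stricter and leaving out an alpha or delta list makes it looser, and the count was 1138 without beta 3, 2951 without alpha 1, 4112 without alpha 2, 2895 without delta 1, and 4414 without delta 2. When only peaks that passed q = 0.01 were used, the rule gave 728 of 51202 regions (1.42%), and on the 50000 peaks of lowest p of each list it gave 1122 of 56854 (1.97%).

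The rule was also read from the delta side. Among 6853 regions called in both delta libraries and no alpha library, 27.5% had a peak in at least 2 beta libraries, 32.4% in 1, and 40.1% in none. Among 30496 regions called in both delta and both alpha libraries, 79.8% had at least 2 beta peaks. The mirrored rules gave 1906 regions for alpha and delta cells without beta cells and 882 for alpha and beta cells without delta cells. The first asks for both alpha, both delta, and no beta lists, the second for both alpha, at least 2 beta, and no delta lists. These counts rest on 2, 3, and 2 lists of unequal length and were not tested against each other.

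Most beta-delta regions lay outside promoters. Promoter-proximal regions, which overlap 3 kb on either side of a TSS, made up 16.8% of them (15.2% to 18.6%), 25.9% of the alpha and beta regions, 29.2% of the alpha and delta regions, 26.9% of all regions of at least 2 libraries, and 61.4% of those of all 7 libraries. Of regions called in at least 2 beta libraries alone they made up 16.0%, and of regions of both delta libraries alone 20.3%. Introns held 36.8% of the beta-delta regions and distal-intergenic sequence 42.8%. The intervals are Wilson intervals at 95%. They cover counting error only, and regions are not replicates, so no test was run. The median distance to the nearest protein-coding TSS was 74912.5 bp, beside 51193.5 bp for all regions of at least 2 libraries, and 837 beta-delta regions (44.5%) lay over 100 kb away. The share of regions of at least 2 libraries that met the rule reached 1.84% on chromosome 16. On chromosome Y, 1 of 419 regions met it (0.239%), and since the rule needs both delta libraries, of which one came from females, the sex of the mice goes with this value. Its part in it was not tested.

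**Figure D3:**
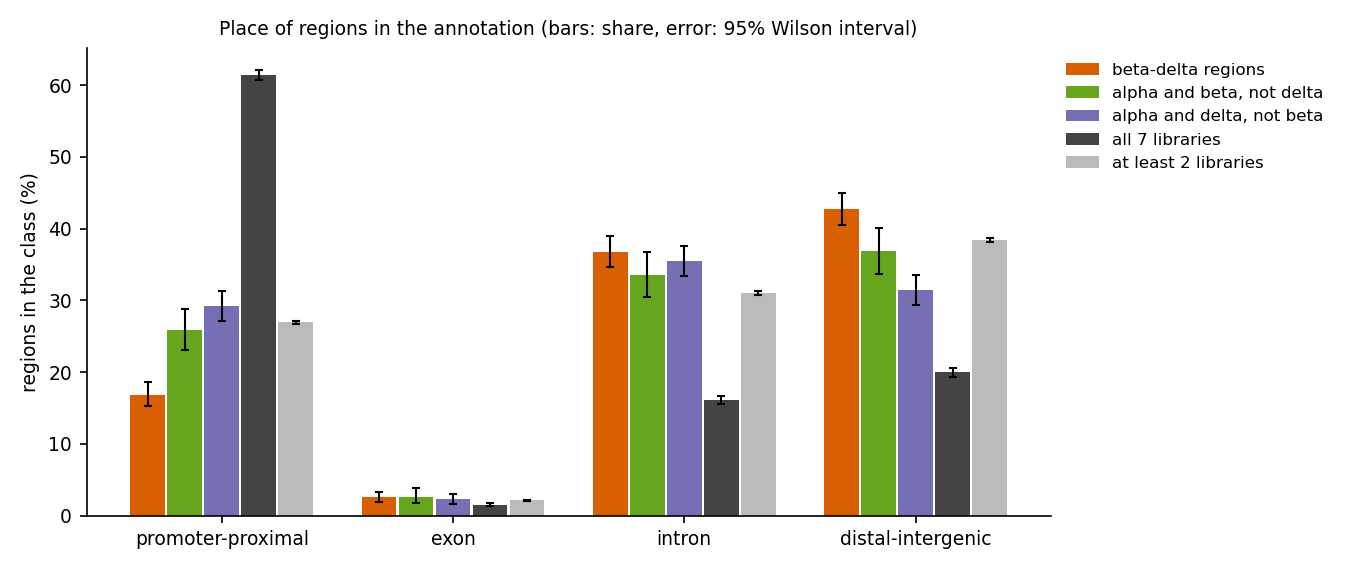
Share of regions in 4 annotation classes (y axis, %) for the beta-delta regions, the mirrored sets, regions of all 7 libraries, and all regions of at least 2 libraries. Error bars are Wilson 95% confidence intervals. The promoter-proximal share of beta-delta regions, 16.8%, lies below that of the other sets.

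Many beta-delta regions had an alpha peak close by. The median gap to the nearest alpha peak was 3818 bp, 353 regions (18.8%) had one within 1 kb, and 368 (19.6%) had none within 10 kb. For the alpha and beta regions, the median gap to the nearest delta peak was 3699 bp. Of those regions, 23.4% had a delta peak within 1 kb and 17.6% had none within 10 kb. A close peak of the missing cell type was thus not particular to the beta-delta regions. Of the 1468 protein-coding genes nearest to a beta-delta region, 66.3% (63.8% to 68.7%) had a TSS peak in both alpha libraries, compared with 56.8% of all 21938 protein-coding genes. Most of these genes thus had alpha peaks at their TSS, though the nearest TSS lay over 100 kb away for 44.5% of the regions. The genes nearest to any accessible region differ from all genes, and the part of that in this difference was not tested.

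These 1468 genes are 6.69% of protein-coding genes, and this share is the background for the lists that follow. Of 44 islet transcription factor genes, 9 were nearest to at least 1 beta-delta region (20.5%), as were 5 of 25 genes of hormones and islet peptides (20%), 7 of 40 receptor genes (17.5%), and 3 of 37 genes of glucose sensing, channels, and exocytosis (8.11%). Genes in wide intergenic spaces or with many accessible regions are nearest to more regions of any kind. The shares were therefore also taken per accessible region, where the background is 1.41%. Among regions of at least 2 libraries, 13 of 817 nearest to the transcription factor genes were beta-delta regions (1.59%), 6 of 251 nearest to the hormone and peptide genes (2.39%), 9 of 445 nearest to the receptor genes (2.02%), and 4 of 438 nearest to the glucose sensing genes (0.913%). By gene, 3 of the 9 alpha cell markers were nearest to a beta-delta region (33.3%), namely Dpp10, Gc, and Irx2. The same held for 1 of the 9 beta cell markers (11.1%) and none of the 6 delta cell markers. Of 231 regions nearest to the 9 alpha cell markers 4 were beta-delta regions (1.73%), of 113 nearest to the 9 beta cell markers 2 (1.77%), and of 46 nearest to the 6 delta cell markers none. These lists are small and were not tested.

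Among the transcription factors, the region of highest score lay 724 bp inside Etv1, an ETS factor, at chr12:38780104-38780380. Its -log10 q was 6.40 in beta 2, 2.88 in beta 3, 5.49 in delta 1, and 4.48 in delta 2, with no peak in beta 1. An alpha peak lay 462 bp away, and the Etv1 TSS itself had a peak within 1 kb in all 7 libraries. A region 856 bp upstream of Mnx1, a homeobox factor of the beta cell lineage, spans chr5:29479326-29479572 and had 2.04, 6.62, 1.91, and 1.93 in beta 2, beta 3, delta 1, and delta 2. The Mnx1 TSS also had a peak in all 7 libraries, with an alpha peak 641 bp from the region. At both genes, alpha cells thus had a peak near the TSS but not in the beta-delta region.

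Insm1, a zinc finger factor of endocrine cells, was nearest to 3 beta-delta regions between 66.4 kb and 138.2 kb away, in introns of Ralgapa2 and Cfap61. The strongest single value was 20.3 in delta 1 at chr2:146083000-146083714, where beta 1 and beta 2 had only 0.0774 and 0.816. A region 41.8 kb upstream of Glis3, a factor needed for insulin expression, was as uneven, with 12.2 and 15.02 in the delta libraries and 0.0774 and 1.43 in beta 1 and beta 3. At both, the delta libraries were high and no beta peak reached a -log10 q of 2. The others in this list were nearest to Irx2, Prox1, Meis1, Meis2, and Isl1, between 93 kb and 551.4 kb away, and to Etv1 at 197.6 kb and 449.8 kb.

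Among the receptors, Glp1r, which binds the incretin GLP-1, had a beta-delta region over its TSS, at chr17:30901564-30901960. The -log10 q was 0.939 in beta 1, 3.41 in beta 2, 1.91 in delta 1, and 3.21 in delta 2, and beta 3 had no peak. Only beta 2 and delta 2 passed a -log10 q of 2. The nearest alpha peak was 10953 bp away, and the Glp1r TSS had no peak within 1 kb in either alpha library. A region 691 bp inside Adra2a, the inhibitory alpha-2A adrenergic receptor, at chr19:54044842-54045486, had weaker peaks, with 1.97, 0.816, 1.86, and 0.834 in beta 1, beta 2, delta 1, and delta 2, none of which reached 2, and an alpha peak lay 461 bp away. One in Ffar2, a receptor for short-chain fatty acids, at chr7:30819687-30820469, had 2.99 and 2.52 in beta 1 and beta 3 and 6.65 and 1.81 in the delta libraries. The melatonin receptor gene Mtnr1b and the insulin receptor gene Insr were nearest to 2 regions each, and Chrm3 and Gria3 to 1 each.

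In the list of glucose sensing, channels, and exocytosis, the strongest region lay in an intron of Abcc9, 60.3 kb from the TSS of Kcnj8, at chr6:142631886-142632142. These genes encode a sulfonylurea receptor and a pore subunit of KATP channels. The region had 2.44, 4.40, and 9.63 in the beta libraries and 6.65 and 12.3 in the delta libraries, all past 2, and an alpha peak lay 412 bp away. Slc2a2, the glucose transporter GLUT2 of beta cells, was nearest to 2 regions. The upstream one, in an intron of Tnik at chr3:28658352-28658736, had 4.94 in beta 1, 2.57 in beta 3, 8.90 in delta 1, and 4.59 in delta 2. The one 36.8 kb downstream of the TSS, at chr3:28734663-28735199, had 2.81, 9.10, and 7.51 in the beta libraries and 1.84 and 5.44 in the delta libraries. Beta 2 was therefore without a peak at the first and highest at the second.

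Granule proteins led the list of hormones and peptides. A region 4138 bp upstream of Scg3, a granin of secretory granules, at chr9:75688194-75688745, had 0.810, 5.66, and 4.01 in beta and 2.004 and 2.48 in delta libraries. One 10.1 kb upstream of Scg2, another granin, at chr1:79450177-79450657, had 0.0774, 3.04, and 1.43 in beta and 2.98 and 3.21 in delta libraries. Beta 1 was lowest at both. Penk, the gene of the enkephalin precursor, Pcsk1, a prohormone convertase, and Gc, the vitamin D binding protein known as an alpha cell marker, were nearest to regions 70.7 kb to 102.6 kb away. For markers of other cell types, 2 of 25 genes (8%) were nearest to a beta-delta region, Cdh5 of endothelial cells with 2 and Ptprc of immune cells with 1, and of these 3 regions none had a score of 2.

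**Figure D4:**
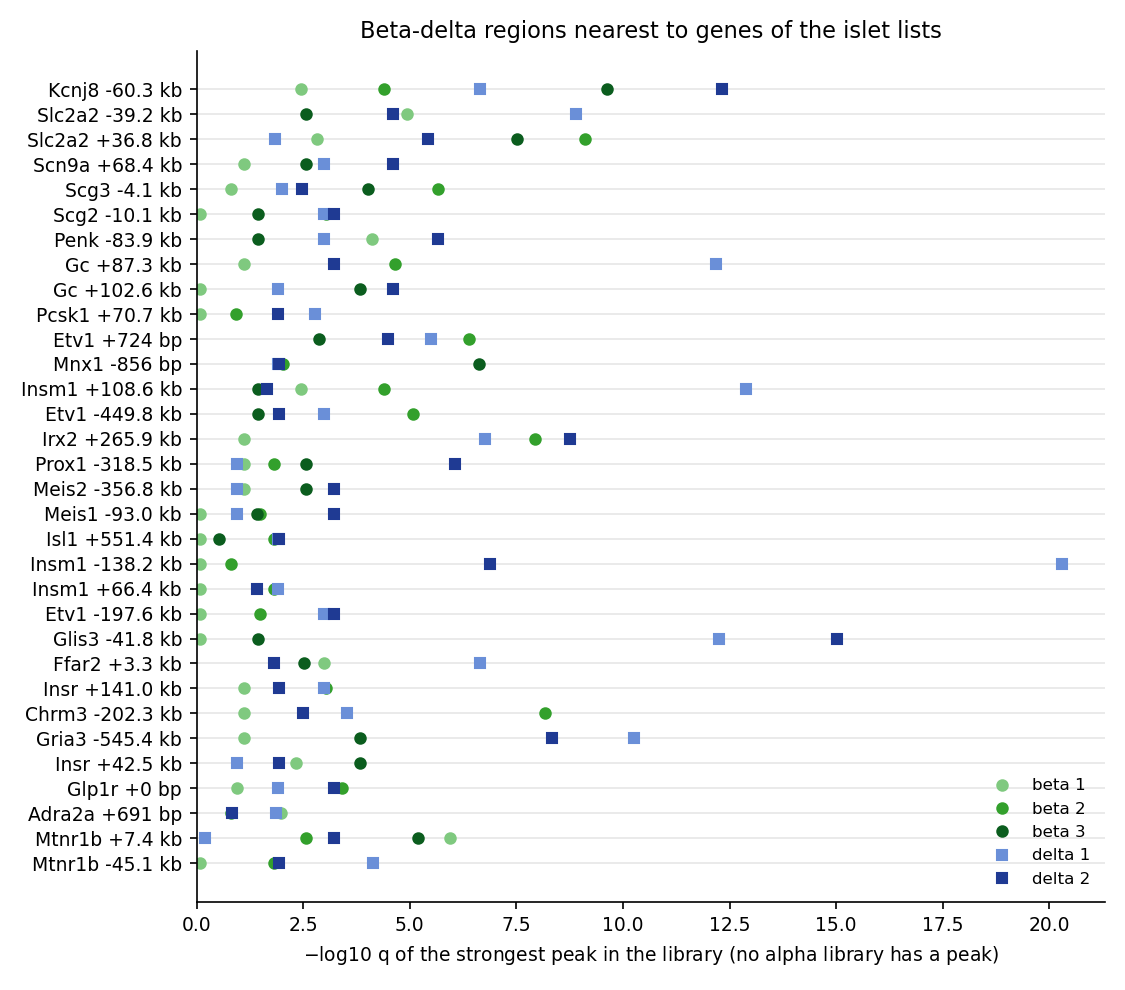
The -log10 q of the strongest peak (x axis) for each beta-delta region whose nearest protein-coding gene is on 1 of the 4 islet gene lists (y axis, gene and signed distance of the region from its TSS). Circles are beta and squares delta libraries, and a missing symbol means no peak. Delta 1 reaches 20.3 at the Insm1 region 138.2 kb away, and all 5 libraries pass 2 at Kcnj8.

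Among the 55 beta-delta regions within 1 kb of a protein-coding TSS, 6 had a score of at least 2. The highest belonged to Nebl, 880 bp inside the gene at chr2:17730188-17730584, with 0.329, 6.73, and 3.54 in the beta libraries and 7.98 and 7.75 in the delta libraries. Nebl thus had a region near its TSS besides the one 331.5 kb into the gene that is printed above. The next was 381 bp upstream of Cpt1a, the carnitine palmitoyltransferase that controls fatty acid entry into mitochondria, at chr19:3321583-3321953, with 5.47, 3.05, and 1.43 in beta and 7.81 and 5.45 in delta libraries. The other genes with a score of at least 2 were Etv1, Sftpd, D13Ertd608e, and Galnt5. At Galnt5 the nearest alpha peak was 21347 bp away, and at Nebl 203 bp.

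The genes nearest to most beta-delta regions had 5 to 8 each. Tenm3, a teneurin that guides neuronal wiring, had 8 (5.97% of its 134 accessible regions), 2 of them in the gene and the others up to 1540.4 kb upstream. Of these, 2 upstream regions passed a -log10 q of 2 in all 5 libraries, at chr8:49811390-49811842 with 5.29, 13.7, and 6.62 in beta and 5.37 and 4.59 in delta libraries, and at chr8:50236486-50236916 with 5.26, 15.8, and 6.01 in beta and 11.2 and 4.26 in delta libraries. Beta 2 was the highest library at both. The scores of the other 6 did not reach 2.

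Pcdh18, a protocadherin, had 7 (11.5% of 61), all outside the gene. The one of highest score, chr3:49046333-49046775, had 0.0774, 3.25, and 6.20 in beta and 15.7 and 10.4 in delta libraries, and delta values over the 7 ranged from 0.795 to 24.1. Adgrl2, the adhesion receptor latrophilin-2, had 5 (3.88% of 129), of which 3 reached a score of 2, and Cdh20, a cadherin, 5 (4.31% of 116). The number 5 was shared by Lingo2, Nrg3, Pcdh7, Pcdh9, and Stim2, and 1180 genes had 1 region each. The number of regions around a gene also depends on the length of the intergenic space, and it was not tested.

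The sequence of the beta-delta regions was somewhat richer in A and T than that of other accessible regions, and less so outside promoters. In windows of 300 bp centred on the summit, the mean GC content was 45.1%, beside 48.3% in the other regions of at least 2 libraries. Outside promoters the values were 44.3% and 45.6%, and the SD over beta-delta windows was 6.11. Regions of beta libraries alone had 45.1% there and those of delta libraries alone 45.2%, both near the beta-delta value. Bases marked as repeats in the reference made up 14.6% of the windows outside promoters, beside 23.6% in the other regions and 32.2% in regions called in beta libraries alone. The sets most like it were nearer, with 15.6% in alpha and beta regions, 10.3% in alpha and delta regions, 16.3% in those of delta libraries alone, and 12.8% in those of all 7 libraries. Of 23 motifs, chosen for islet and general factors, the homeodomain letters TAATTA showed the largest ratio between beta-delta regions and the others. This was chosen after all 23 shares had been seen.

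Outside promoters, 241 of 1565 beta-delta windows held TAATTA (15.4%, 13.7% to 17.3%). The share was 9.36% (9.18% to 9.55%) in the other regions of at least 2 libraries, 7.95% (6.11% to 10.3%) in alpha and beta regions, 6.89% (5.66% to 8.37%) in alpha and delta regions, and 9.97% (9.29% to 10.7%) in regions of all 7 libraries. In regions of both delta libraries alone it was 12.3% (11.01% to 13.8%), and in regions of at least 2 beta libraries alone 8.66% (8.17% to 9.17%). TAATTA is the core of many homeodomain sites, among them those of Pdx1, Nkx6-1, and Mnx1, so it does not tell these factors apart. Over all windows, promoters included, 14.5% of beta-delta regions held it, beside 8.10% of the others.

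Base composition moved with this share. Among windows of 40% to 45% GC, 18.6% of beta-delta regions held TAATTA and 11.3% of the other regions, and among windows of 45% to 50% GC the shares were 10.6% and 6.89%. Below 40% GC they were 23.1% (19.1% to 27.8%) and 18.02% (17.5% to 18.6%). The beta-delta share was the higher one in all 4 GC classes, the last of them, from 50% GC, with 5.93% and 3.29%. Of the 7 other words of 6 letters made of A and T that read the same on both strands, ATTAAT, which shares the letters TAAT, was the one with a like gap, 14.6% beside 9.29%. For the remaining 6 words, the shares differed by at most 2.5 percentage points, such as 9.90% and 10.5% for AAATTT and 19.1% and 16.6% for TTTAAA. To see where the matches lie, the search was widened to 250 bp on either side of the summit. In the 1565 beta-delta regions 93 matches lay within 50 bp of the summit and 84 between 200 and 250 bp from it. In the 96142 others the counts were 3102 and 3717. Matches were thus fewer at the summit in the others. In the beta-delta regions each step of 50 bp held 84 to 94 matches, so they were not concentrated at the summit.

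The TAATTA share was also read by peak strength and by the calls of beta 1. It was 13.99% for scores under 1, 17.4% for scores from 1 to under 2, and 15.1% for scores of at least 2, with overlapping intervals. Regions called in beta 1 held it in 15.1% and those not called there in 18.5% (12.7% to 26.3%, 124 regions). Regions of at least 2 libraries outside promoters were also split by the calls of beta 1 and the alpha libraries, which share a lane code. Of the 1749 whose beta 1 peak passed q = 0.01 and that had no alpha peak, 14.9% held TAATTA. The share was 7.87% in the 7929 regions called in both alpha libraries and not in beta 1. Each of the 1749 regions also had a peak in a library of the other lane code, which the 7929 did not need. The comparison is thus not one within a lane. The first of these sets shares regions with the beta-delta regions.

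To use peaks that the rule did not select, the TAATTA share was computed in each library over its 50000 peaks of lowest p, without promoters and beta-delta regions. It was 9.08% and 8.44% in alpha 1 and 2, 10.2%, 10.1%, and 7.79% in beta 1, 2, and 3, and 10.6% and 10.5% in delta 1 and 2. Beta 3 lay below both alpha libraries and the other 4 above them. The mean was 9.84% ± 1.16 (SD, n = 5) in beta and delta and 8.76% ± 0.453 (SD, n = 2) in alpha libraries, and the difference of 1.08 percentage points did not pass a two-sided exact permutation test (p = 0.333, adjusted over 23 motifs 0.697), where 0.0476 is the smallest p of the design. With all peaks that passed q = 0.01 the difference was 1.39 (exact permutation p = 0.143, adjusted 0.952). The higher share of the beta-delta regions was thus not shown for the remaining beta and delta peaks.

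AP-1 letters stood in 28.5% of beta-delta windows outside promoters (26.3% to 30.8%) and in 18.9% of the other regions of at least 2 libraries. The share was also 28.0% in alpha and beta regions, 24.7% in alpha and delta regions, and 30.2% in regions of all 7 libraries, so it was not particular to beta-delta regions. Among beta-delta regions of score at least 2 it was 35.9% (30.6% to 41.6%), and 12 of the 20 of highest score held it. The letters of the MAF motif, TGCTGAC, stood in 6.07% (4.99% to 7.36%) of beta-delta windows, near the 6.75% of the other regions of at least 2 libraries. The alpha and beta windows (11.5%, 9.25% to 14.1%) and the windows of alpha cells alone (10.7%) were the high ones. FOXA letters were found in 8.56% (7.28% to 10.1%) of beta-delta windows and 7.41% of the others, and in 9.79%, 9.85%, and 10.3% of alpha and beta, alpha and delta, and all 7 library windows. RFX letters stood in 6.58% of beta-delta windows and 5.16% of the others, with 8.74% in alpha and delta windows, 7.94% in those of delta cells alone, and 6.59% in those of all 7 libraries. NKX2 letters (CACTTAA) had 5.62% and 4.003%, with 5.61% in windows of delta cells alone. For FOXA, and for NEUROD E-box letters (27.4% and 27.0%) and GATA letters (18.1% and 17.2%), the beta-delta interval covers the share of the others. None of the words named here contains another, though neighbouring matches can share letters.

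**Figure D5:**
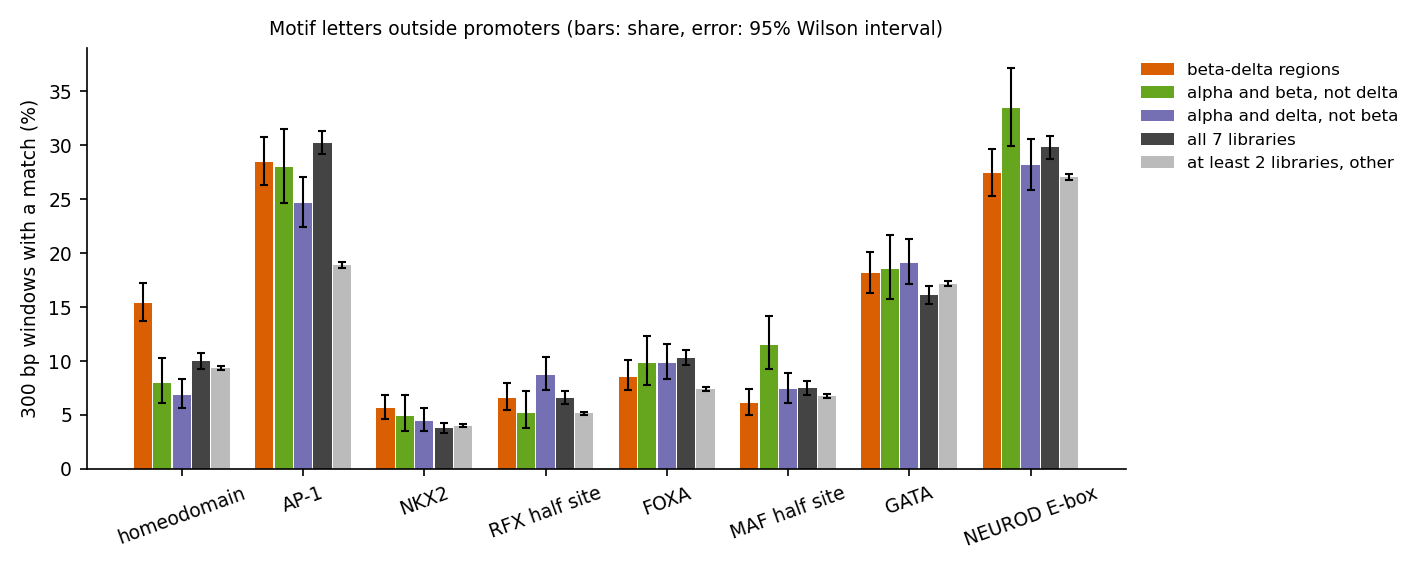
Share of 300 bp windows outside promoters (y axis, %) with the letters of 8 motifs (x axis) for the beta-delta regions, the mirrored sets, regions of all 7 libraries, and the other regions of at least 2 libraries. Error bars are Wilson 95% confidence intervals. For the homeodomain letters the beta-delta share, 15.4%, lies above the other 4 sets, and for AP-1 it lies near 3 of them.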

How the data were processed

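Peak lists of 7 ATAC-Seq libraries of FACS-sorted islet cells, 2 alpha, 3 beta, and 2 delta, were analysed on GRCm38 (mm10). The authors used Trimmomatic for trimming, Bowtie 2 for alignment to a genome that left out mitochondrial DNA, and Picard to mark duplicates. Blacklist regions were taken out, and MACS2 was run on every library by itself. The versions and the MACS2 threshold are not given in the sources used here, and the lowest -log10 p of each list was 2.01. The deposited -log10 p and -log10 q values, the fold enrichment (a ratio of the summit to local background), and the score column come from these calls. The lists hold no read counts, so depth per region is unknown.

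Repeated intervals were counted once. Calls were compared after merging peaks that overlap by 1 bp, and the cell type of each library was taken from its label. GENCODE vM21 gave the classes, in the order promoter-proximal (3 kb), UTR, exon, intron, downstream (300 bp), and distal-intergenic, and the nearest TSS of a protein-coding gene. Motifs were searched on both strands in 300 bp of the reference.

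The named regions were the 20 of highest score, up to 3 per gene list, and regions of the 5 genes with most regions. One of these genes is not reported here. The other regions of the lists, and those within 1 kb of a TSS, were named after their values were seen. The regions and lists were chosen with earlier results of these data known. The per-library motif test and 2 subsets of the motif share were added after seeing the data. The alternatives were stricter peak sets, coverage of 0.5 of a region, subsets by beta 1, all 3 beta lists, other promoter windows, motif windows, and distances, leaving out each library, and a replicate block.

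Intervals are Wilson 95% confidence intervals and cover counting error only. Libraries were compared by two-sided exact permutation tests with Benjamini-Hochberg adjustment. The scripts ran in Python 3.11.15, with scipy 1.17.1 for tests, pandas 2.3.3 and numpy 2.4.6 for tables, and matplotlib 3.10.9 for plots, and the steps were tested on simulated lists.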

Additional observations from a re-analysis of the deposited data

How the results depend on the processing

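The count of 1882 beta-delta regions was 728 on peaks past q = 0.01, 1122 on the 50000 peaks of lowest p, 686 with all 3 beta lists, and 160 among regions not called in beta 1, and it ranged from 844 to 4414 when 1 library was left out, which also loosens or tightens the rule. The promoter-proximal share of 16.8% was 22.5% among regions not called in beta 1, 15.2% with all 3 beta lists, 8.61% within 1 kb of a TSS, 11.3% with 3 kb upstream only, and 10.3% at protein-coding genes, and 15.9% to 22.2% with 1 library left out. The share reaching a -log10 q of 2 stayed lower in beta libraries, but the difference ranged from -15.8 to -0.419 percentage points when 1 library was left out, and was smallest without delta 2. The median percentile turned to -3.78 among regions not called in beta 1, and otherwise ranged from 1.996 to 28.0 with 1 library left out. With 3 beta and 2 delta libraries, the smallest exact permutation p is 0.1, so neither measure could pass under any alternative run.

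The replicate numbers of the labels pair beta 1 with delta 1 and beta 2 with delta 2. With a replicate block over these 2 pairs, the differences were -16.6 percentage points and 14.6 percentiles. Over 1138 regions called in all 4 libraries, the beta 1 minus beta 2 and delta 1 minus delta 2 percentiles correlated at -0.0223. The labels do not say that a number marks shared animals, and this check over 2 pairs cannot show whether it does. The share of regions with TAATTA was 9.78% in windows of 200 bp, and 18.5% among regions outside promoters not called in beta 1. The shares of 17 of the 22 other motifs moved beyond their interval in windows of 200 bp, all to lower values, and none in windows centred on the middle of the region. The count of nearest genes fell from 1468 to 975 with starts within 100 kb only. Read depth cannot be had from the lists. The study reports unique mapped reads per library, which were unequal, and their part in these results was not tested. Beta 1, where 4.996% of peaks reached a -log10 q of 2, had a peak in 91.5% of the beta-delta regions. The rule needed that peak in the 452 regions called with beta 2 only and the 584 called with beta 3 only, and it needed both delta lists in all.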
